A study of Mus musculus with 33 samples.

Results

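The genes described here encode the enzymes that put methyl groups on lysine 9 of histone H3 (H3K9) and their binding partners. They were chosen by name as H3K9 methyltransferases and partners, by a rule that uses no measured value but was written with earlier results of these data known. Of the 10 names, Prdm3 is another name of Mecom, so the names stand for 9 genes, and all 9 were found among the 14717 genes of the deposited RNA table: Ehmt1, Ehmt2, Wiz, Setdb1, Atf7ip, Suv39h1, Suv39h2, Mecom and Prdm16.

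H3K9 methylation marks chromatin that is kept silent. Dimethylation (H3K9me2) is laid down mainly by the partner enzymes G9a (gene Ehmt2) and GLP (gene Ehmt1) and is rich in the chromatin that lies against the nuclear lamina. Trimethylation is laid down by SETDB1, largely at retroelements and zinc finger gene clusters, and by SUV39H1 and SUV39H2, largely at the repeats around centromeres. PRDM3 and PRDM16 are zinc finger transcription factors that were reported in mouse fibroblasts to monomethylate H3K9.

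P19 is a mouse embryonal carcinoma line that can be turned into neurons with retinoic acid (RA) or into mesoderm and heart muscle with dimethyl sulfoxide (DMSO). RNA depleted of ribosomal RNA was sequenced in 15 libraries, 3 per group. D0 is undifferentiated P19 cells. D3RA and D6RA are P19 cells differentiated with 1 µM all-trans RA for 3 and 6 days, and D3DMSO and D6DMSO are P19 cells differentiated with 1% DMSO for as long. Treated cells spent 2 days as embryoid bodies and were then moved to flasks, and all groups come from the same line and carry no engineered change. The design text calls the libraries of a group biological replicates without naming separate cultures, so p-values measure the spread between these libraries, which may be technical. The 18 chromatin immunoprecipitation samples of the series, for H3K9me2 and for H3, are not analysed here, so all values are RNA levels.

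Total counts were 7.13 to 9.88 M per library in D0, 3.55 to 9.82 M in D3RA, 5.86 to 6.87 M in D3DMSO, 38.24 to 49.64 M in D6RA and 38.97 to 44.52 M in D6DMSO. The 11 mitochondrial genes of the table had 0 counts in every D0 and D3 library and took 41.6 to 42.6% of the counts in D6RA and 49.8 to 55.8% in D6DMSO. The day 6 libraries therefore differ from the others in depth and makeup, and in comparisons of D6 with D3 the day and the set of libraries cannot be told apart. Libraries also differed within groups in the share of non-mitochondrial counts on Lars2 and Gm15564, which was 1.05% in D3RA replicate 1 and 21.74 and 24.07% in the other D3RA libraries, and 1.52% in D3DMSO replicate 1 and 17.98 and 13.17% in the other D3DMSO libraries. It was 4.61 to 12.68% in D0 and below 1% in every day 6 library. The part of this share in the results was not tested beyond leaving out each library in turn. The labels were checked with summed levels of marker genes. Pluripotency markers (5 measured of 6) summed to 1790 to 2060 CPM in D0, 137 to 164 CPM in D3RA and, in D3DMSO replicates 1 to 3, 1130, 565 and 699 CPM. This difference runs alongside every comparison of D3RA with D3DMSO, and its part in them was not tested. At day 6 these markers summed to 175 to 196 CPM in D6RA and 113 to 133 CPM in D6DMSO. Most of the sum in D3RA and D6RA was Sox2, at 147 ± 12.1 and 187 ± 11.1 CPM (SD). It was at 67.4 ± 11.1 CPM in D3DMSO and 49.8 ± 16.1 CPM in D6DMSO. At each day Sox2 was higher with RA than with DMSO, and each of the other measured pluripotency markers was lower. Pou5f1 was at 0.115 ± 0.124 CPM in D6RA and 47 ± 5.98 CPM in D6DMSO. Neural markers (5 of 6) summed to 3220 to 3420 CPM in D6RA against 145 to 160 CPM in D6DMSO. Nascent mesoderm markers (5 of 6) summed to 1280 to 1340 CPM in D3DMSO, 1.95 to 2.74 CPM in D3RA and 7.23 to 8.21 CPM in D0. At day 6 they summed to 59.1 to 62.6 CPM in D6DMSO and 2.45 to 3.24 CPM in D6RA. Cardiac markers (5 of 5) summed to 99 to 169 CPM in D6DMSO, 12.3 to 13.9 CPM in D6RA and 17.6 to 24.6 CPM in D0.

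Levels are in CPM, a gene's count relative to its library's size, scaled as the authors scaled the table, and are compared between groups, not between genes, because they are not divided by gene length. Each difference is given as a log2 fold change with its SE, fitted by limma to the deposited log2 values, and a gene is said to rise or fall where the p adjusted over all 14717 genes was below 0.05. Because most genes of the table pass this test in most comparisons, the share of all genes that passed is given beside the first counts of the 9 genes and of other sets of genes.

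**Figure D1:**
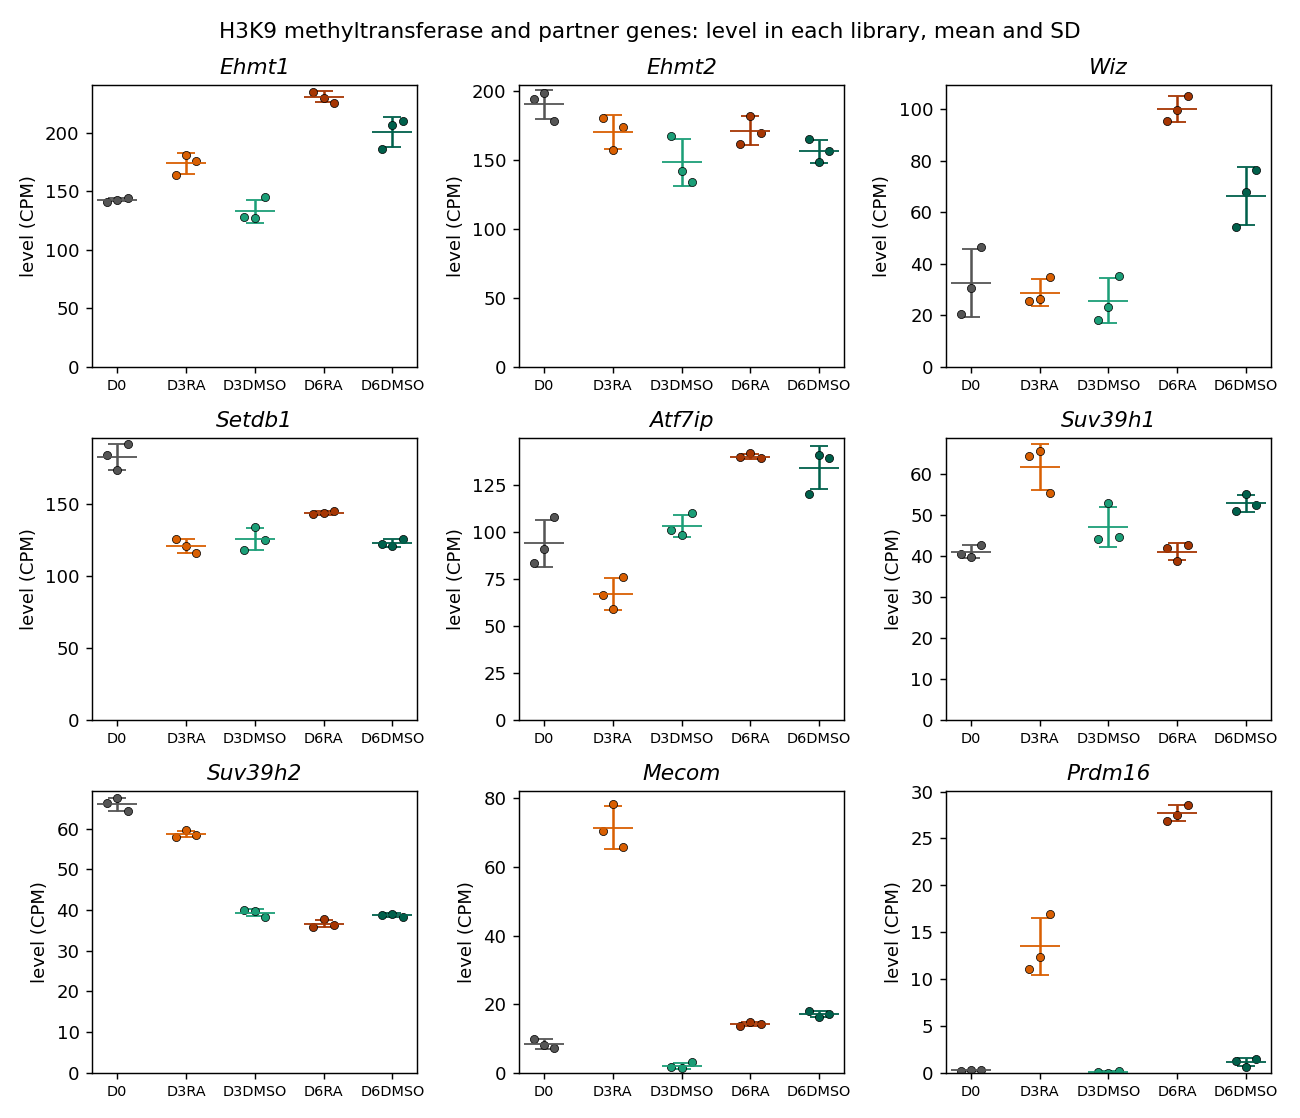
Level of each of the 9 genes in CPM (vertical axes, each starting at 0) in the 15 libraries, with a point per library and bars for the mean and SD of the 3 libraries of a group. Mecom stands out in D3RA (65.8 to 78.2 CPM) and Prdm16 in D3RA and D6RA (11.1 to 16.9 and 26.9 to 28.6 CPM), whereas Ehmt2 stays between 134 and 198 CPM in all 15 libraries.

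The PRDM genes moved furthest. Mecom, which encodes a zinc finger factor of blood stem cells and blood vessels, rose in D3RA, fell in D3DMSO and was at intermediate levels at day 6. Its level was 9.95, 8.02 and 7.28 CPM in the D0 libraries, 70.4, 78.2 and 65.8 CPM in D3RA and 13.8, 14.9 and 14.1 CPM in D6RA. On the DMSO side it was 1.66, 1.44 and 3.1 CPM in D3DMSO and 18, 16.3 and 17.2 CPM in D6DMSO. Every D3RA library lay above every other library, every D3DMSO library lay below, and no neighbouring groups in the order D3RA, D6DMSO, D6RA, D0, D3DMSO overlapped. Mecom rose in D3RA over D0 by a log2 fold change of 3.09 ± 0.20 (adjusted p = 8.62e-10) and fell in D3DMSO relative to D0 (-2.05 ± 0.20, adjusted p = 3.14e-07). The difference of D3RA over D3DMSO was 5.13 ± 0.20 (adjusted p = 2.34e-12), from 71.4 ± 6.27 CPM in D3RA and 2.06 ± 0.902 CPM in D3DMSO (SD, n = 3 each). In bulk RNA such as this, fewer cells that express a gene and less of its RNA per cell cannot be told apart.

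By day 6 the treatments were close for Mecom. Its level averaged 14.3 ± 0.559 CPM in D6RA and 17.1 ± 0.863 CPM in D6DMSO, a log2 fold change of -0.26 ± 0.20 (95% interval -0.69 to 0.17, adjusted p = 0.272). The libraries of the 2 groups did not overlap, and the difference passed the test when the fit held only those 6 libraries (adjusted p = 0.00803) or used voom weights (adjusted p = 0.0107). The 14 alternatives gave values between 0.00803 and 0.428. Mecom fell in D6RA relative to D3RA (-2.32 ± 0.20, adjusted p = 4.03e-08) and rose in D6DMSO over D3DMSO (3.07 ± 0.20, adjusted p = 3.49e-09).

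Mecom has 2 annotated starts in the RefSeq table of GRCm38.p6. The distal one gives the long form with the PR domain, MDS1-EVI1 (PRDM3), to which the methyltransferase activity was ascribed, and the proximal one gives EVI1, which lacks that domain. The table holds 1 value per gene, so it does not say which form the RNA came from. The 250 bases before each start are shown because, of the 9 genes, Mecom had the largest difference between RA and DMSO at day 3 after Prdm16, and motifs of retinoic acid receptors can be looked for there. Capitals mark the hexamers that these receptors bind, which are AGGTCA and its variants AGTTCA, then also GGGTCA and finally GGTTCA, searched on both strands with overlaps allowed.
Mecom, distal start, chr3:30509760-30510009, minus strand: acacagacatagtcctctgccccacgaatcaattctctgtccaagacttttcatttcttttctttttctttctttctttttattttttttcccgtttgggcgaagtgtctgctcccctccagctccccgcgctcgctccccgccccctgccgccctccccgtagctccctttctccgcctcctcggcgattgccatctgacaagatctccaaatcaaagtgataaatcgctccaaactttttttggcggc
Mecom, proximal start, chr3:30013205-30013454, minus strand: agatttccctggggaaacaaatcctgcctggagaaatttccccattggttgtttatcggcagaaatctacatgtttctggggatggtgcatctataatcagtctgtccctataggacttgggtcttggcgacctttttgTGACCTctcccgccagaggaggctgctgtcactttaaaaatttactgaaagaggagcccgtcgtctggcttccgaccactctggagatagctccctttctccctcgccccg
The distal window held 0 hexamers and the proximal one held 1, on the opposite strand to the gene. A hexamer was in 38.6% of the 32851 promoter windows of that length, so 1 match is common. A direct repeat of hexamers with a spacing of 1, 2 or 5 bases was in 0.164%, 0.174% and 0.0883% of the windows and in neither of these. The distal window held 14 CpG dinucleotides and the proximal one 8, against a median of 6.

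Markers of endothelium, like Mecom, were highest in D3RA, but their sum did not follow Mecom across the other groups. All 9 listed were measured, and they summed to 189 to 255 CPM in D3RA, 37.3 to 65.7 CPM in D3DMSO, 24.3 to 34.1 CPM in D6RA, 156 to 182 CPM in D6DMSO and 12.1 to 13.9 CPM in D0. In D3RA over D3DMSO 8 of them rose and 0 fell, where 30.7% of all genes were higher and 31.4% lower. In D6RA relative to D6DMSO 6 fell and 0 rose (33.1% of all genes lower and 32.6% higher), while Mecom was not called. In D3DMSO relative to D0 5 rose and 2 fell (28.2% of all genes higher and 27.8% lower), while Mecom fell. Emcn, an endothelial sialomucin, had 0 counts in D3DMSO. Of the 6 blood markers 2 were measured, Runx1 and Tal1. They summed to 13.7 to 15.9 CPM in D3RA and 1.08 to 2.26 CPM in D3DMSO, where 1 rose and 1 was not called. At day 6 they summed to 0.615 to 1.09 CPM in D6RA and 18 to 21.2 CPM in D6DMSO, where 2 fell and 0 rose. Most of the endothelium sum in D3DMSO and D6DMSO was Kdr, which also marks early mesoderm, at 46.8 ± 14.5 CPM in D3DMSO and 124 ± 8.65 CPM in D6DMSO, against 8.64 ± 1.92 CPM in D6RA and 0.904 ± 0.479 CPM in D0. The other 8 markers were split off after their values were seen. They summed to 135 to 177 CPM in D3RA, 41.5 to 53.4 CPM in D6DMSO and 17 to 23.4 CPM in D6RA. Their sums were 11.6 to 12.7 CPM for D0 and 4.18 to 5.8 CPM for D3DMSO. The order of these sums is that of the Mecom levels, but its last step rests on Tek. Mean Tek was 9.97 ± 0.753 CPM before differentiation, against 0.695 ± 0.455 CPM after 3 days of DMSO. Of the remaining markers, Cdh5, Tie1, Esam, Sox17 and Sox18 had higher means in D3DMSO than in D0. Pecam1 and Emcn had lower ones. The part of such cells in the Mecom result was not tested.

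Prdm16, which encodes a zinc finger factor of neural progenitors and brown fat, rose with RA at both days. It had 2, 2 and 3 counts in the D0 libraries (0.205, 0.315 and 0.284 CPM), and was at 11.1, 12.4 and 16.9 CPM in D3RA and 26.9, 27.5 and 28.6 CPM in D6RA. D3DMSO held 1, 0 and 1 counts, and D6DMSO was at 1.27, 0.63 and 1.44 CPM. The RA groups lay above all other libraries, and no neighbouring groups in the order D6RA, D3RA, D6DMSO, D0, D3DMSO overlapped. The log2 fold change of D3RA over D0 was 5.38 ± 0.36 (adjusted p = 1.09e-09), and that of D6RA over D6DMSO was 4.69 ± 0.36 (adjusted p = 5.03e-09). Against the 2 counts of D3DMSO, the 197 counts of D3RA gave a CPM ratio of 113 (95% interval from counting error alone, 30.8 to 937). The fitted log2 fold change of D3RA over D3DMSO was 6.30 ± 0.36 (adjusted p = 1.98e-10).

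With RA, Prdm16 rose further in D6RA over D3RA (1.05 ± 0.36, adjusted p = 0.0162), a call that was lost without D3RA replicate 1 (adjusted p = 0.0613) or D6RA replicate 3 (adjusted p = 0.0505). The 14 alternatives gave values between 9.47e-07 and 0.0613. It also rose in D6DMSO over D3DMSO (2.66 ± 0.36, adjusted p = 1.18e-05), with 77 counts in D6DMSO and 2 in D3DMSO and a CPM ratio of 10.3 (2.75 to 86.5). The fall in D3DMSO relative to D0 (-0.92 ± 0.36, adjusted p = 0.0393) rests on 2 counts against 7, a ratio of 0.411 (0.0416 to 2.16). That call was lost with voom weights (adjusted p = 0.278), in a fit of those 6 libraries (adjusted p = 0.233) and without D0 replicate 2 or 3 or D3DMSO replicate 2 (adjusted p = 0.119, 0.0772 and 0.188). The 14 alternatives gave values between 0.00515 and 0.278, and the counting interval of the ratio includes 1. Neural markers summed to 1280 to 1400 CPM in D3RA and 230 to 246 CPM in D3DMSO. All 5 rose in both comparisons of RA with DMSO, where 30.7% of all genes were higher at day 3 and 32.6% at day 6. In D6DMSO relative to D3DMSO 3 of them fell and 1 rose (28.1% of all genes lower, 28.3% higher), while Prdm16 rose. Their sum was 285 to 330 CPM in D0 and 145 to 160 CPM in D6DMSO. Whether Prdm16 RNA came from the same cells as these markers was not tested.

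**Figure D2:**
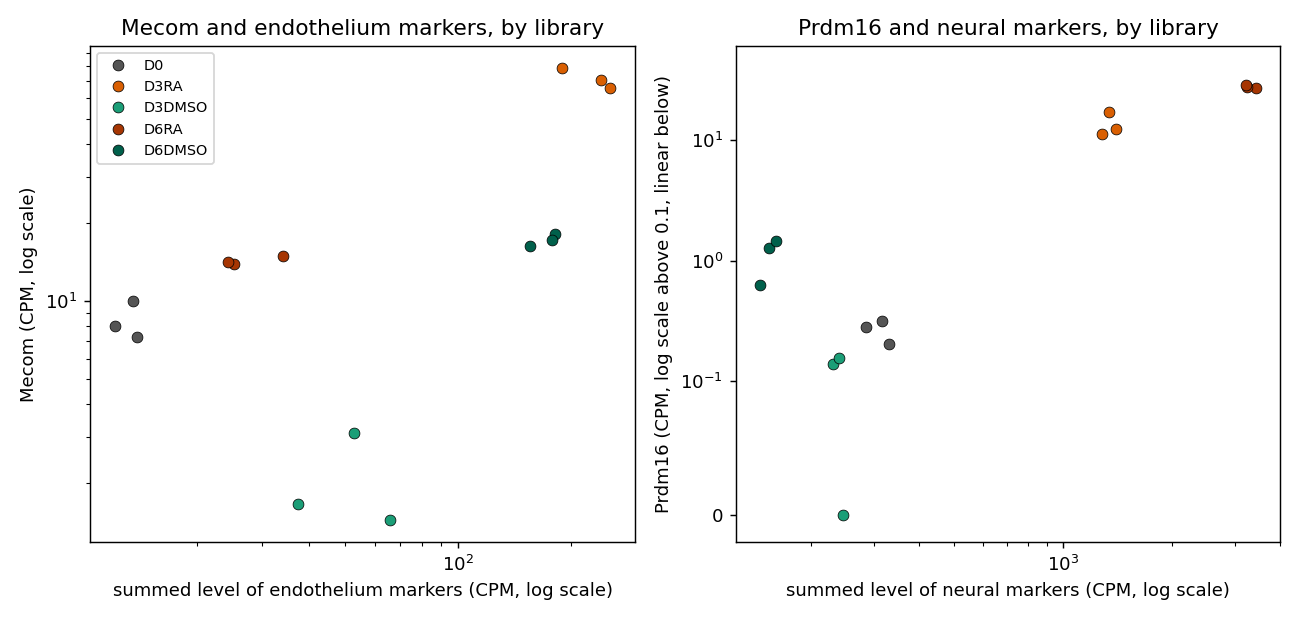
Left, Mecom against the summed level of 9 endothelium markers, and right, Prdm16 against that of 5 neural markers, both in CPM on log axes (Prdm16 is linear below 0.1), with 1 point per library. The D3RA points are highest for Mecom at 189 to 255 CPM of endothelium markers, while D6RA and D6DMSO differ in those markers (24.3 to 34.1 and 156 to 182 CPM, most of the D6DMSO sum being Kdr) more than in Mecom (13.8 to 14.9 and 16.3 to 18 CPM).

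Of the enzymes for H3K9me2, Ehmt2 (G9a) had the narrowest range of group means of the 9 genes, and Ehmt1 (GLP) rose in D3RA over D0 and, with either treatment, in D6 over D3. Ehmt2 averaged 190 ± 10.7 CPM in D0, 170 ± 12.1 in D3RA, 148 ± 16.9 in D3DMSO, 171 ± 10.5 in D6RA and 156 ± 8.5 in D6DMSO (SD, n = 3 each). From high to low the order was D0, D6RA, D3RA, D6DMSO and D3DMSO, and every pair of neighbours in it overlapped. It fell in D3DMSO relative to D0 (-0.37 ± 0.08, adjusted p = 0.00149). It was not called in D3RA relative to D0 (-0.16 ± 0.08, 95% interval -0.33 to 0.02, adjusted p = 0.111).

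The D3RA libraries had 180, 157 and 174 CPM of Ehmt2, against 167, 142 and 134 CPM in D3DMSO. The groups overlapped, and the call of D3RA over D3DMSO (0.21 ± 0.08, adjusted p = 0.0401) was lost in 7 of 14 alternatives, with adjusted p between 0.00407 and 0.221. Without D3DMSO replicate 2 or 3 it was 0.112 and 0.173, and without D3RA replicate 1 or 3 it was 0.136 and 0.0961. At day 6 Ehmt2 was not called between treatments (0.13 ± 0.08, 95% interval -0.05 to 0.31, adjusted p = 0.187).

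Ehmt1 was at 141, 143 and 144 CPM in D0, 164, 181 and 176 CPM in D3RA and 235, 230 and 226 CPM in D6RA. It was at 128, 127 and 145 CPM in D3DMSO and 186, 207 and 210 CPM in D6DMSO. The D6RA libraries were the highest of the 15, and D0 and D3DMSO overlapped. Ehmt1 rose in D3RA over D0 (0.28 ± 0.07, adjusted p = 0.00131), in D3RA over D3DMSO (0.38 ± 0.07, adjusted p = 0.000115), in D6RA over D3RA (0.41 ± 0.07, adjusted p = 5e-05) and in D6DMSO over D3DMSO (0.59 ± 0.07, adjusted p = 1.84e-06). In D3DMSO relative to D0 it was not called (-0.10 ± 0.07, adjusted p = 0.233). The rise of D6RA over D6DMSO (0.20 ± 0.07, adjusted p = 0.0168) was lost with quantile normalization (0.177) and without D6DMSO replicate 1 (0.0972) or D6RA replicate 1 (0.0588), with 0.00396 the lowest over its alternatives. The log2 value of Ehmt1 less that of Ehmt2 in the same library averaged -0.41 ± 0.09 in D0, 0.03 ± 0.17 in D3RA, -0.14 ± 0.24 in D3DMSO, 0.43 ± 0.10 in D6RA and 0.37 ± 0.17 in D6DMSO (SD, n = 3 each). Its zero has no meaning because the values are not divided by gene length, and only its shift between groups is read.

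Wiz, which encodes a zinc finger partner of the G9a and GLP enzymes, was higher at day 6 than before. It was at 20.4, 30.7 and 46.3 CPM in D0, 25.4, 26.1 and 34.7 CPM in D3RA and 95.3, 99.7 and 105 CPM in D6RA, and at 18.1, 23.2 and 35.2 CPM in D3DMSO and 54.4, 67.9 and 76.5 CPM in D6DMSO. All 6 day 6 libraries lay above the other 9, and D0, D3RA and D3DMSO overlapped. In each of the 5 groups the library numbered 3 in the titles was the highest and that numbered 1 the lowest. Wiz rose in D6RA over D3RA by 1.81 ± 0.25 (adjusted p = 7.07e-06) and in D6DMSO over D3DMSO by 1.42 ± 0.25 (adjusted p = 0.000147).

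Between treatments at day 6, Wiz differed by 0.61 ± 0.25 in D6RA over D6DMSO (adjusted p = 0.0409). The groups did not overlap, but the call was lost in 7 of 14 alternatives, with adjusted p between 0.000416 and 0.154. With the replicate number added to the fit as a block, 1 of these alternatives, the adjusted p was 0.00145. Without D6DMSO replicate 1 or 2 the adjusted p was 0.154 and 0.0692, and without D6RA replicate 1, 2 or 3 it was 0.0628, 0.0777 and 0.0965. Among D0, D3RA and D3DMSO no comparison of Wiz was called, except D3DMSO with D0 when D0 replicate 1 was left out (-0.62, adjusted p = 0.0388, within 0.0388 to 0.933), and its 95% interval for D3RA over D3DMSO ran from -0.31 to 0.74.

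Setdb1 was highest in undifferentiated cells and its partner Atf7ip was lowest with RA at day 3. Setdb1 was at 184, 174 and 192 CPM in D0, 126, 121 and 116 CPM in D3RA and 118, 134 and 125 CPM in D3DMSO. No D0 library was as low as a day 3 library, and the day 3 groups overlapped. Setdb1 fell in D3RA relative to D0 by a log2 fold change of -0.60 ± 0.06 (adjusted p = 2.73e-07) and in D3DMSO relative to D0 by -0.54 ± 0.06 (adjusted p = 1.73e-06), both against the same D0 libraries. The difference of D3RA over D3DMSO was -0.05 ± 0.06 (95% interval -0.19 to 0.08, adjusted p = 0.467).

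At day 6 Setdb1 was at 143, 144 and 145 CPM in D6RA, against 122, 121 and 126 CPM in D6DMSO, with no overlap. It rose in D6RA over D6DMSO (0.23 ± 0.06, adjusted p = 0.00456) and in D6RA over D3RA (0.25 ± 0.06, adjusted p = 0.00214). With quantile normalization both calls were lost (0.11 and 0.12 on the log2 scale, adjusted p = 0.131 and 0.0819, the highest over 14 alternatives each, with the lowest at 0.000727 and 0.00189). In D6DMSO over D3DMSO it was not called (-0.03 ± 0.06, 95% interval -0.16 to 0.10).

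Atf7ip, which encodes a protein that holds SETDB1 in the nucleus and protects it from breakdown, was at 83.5, 90.6 and 108 CPM in D0. It was at 66.1, 59 and 75.8 CPM in D3RA, against 101, 98.3 and 110 CPM in D3DMSO, and the D3RA libraries were the lowest of all 15. It fell in D3RA relative to D0 (-0.49 ± 0.10, adjusted p = 0.000406) and relative to D3DMSO (-0.63 ± 0.10, adjusted p = 4.37e-05), and was not called in D3DMSO relative to D0 (0.14 ± 0.10, adjusted p = 0.248). At day 6 it was at 140, 142 and 139 CPM in D6RA and 120, 141 and 139 CPM in D6DMSO, which overlapped. It rose in D6RA over D3RA by 1.07 ± 0.10 (adjusted p = 9.12e-08) and in D6DMSO over D3DMSO by 0.37 ± 0.10 (adjusted p = 0.00487).

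The log2 value of Setdb1 less that of Atf7ip in the same library averaged 0.86 ± 0.22 in D3RA and 0.29 ± 0.14 in D3DMSO, a difference of 0.57 with no overlap (exact permutation test, two-sided, p = 0.1, the smallest that 3 libraries against 3 allow). In D6RA it averaged 0.03 ± 0.02 and in D6DMSO -0.12 ± 0.13, a difference of 0.15 (exact p = 0.2). In D0 it averaged 0.97 ± 0.16, and the day 6 libraries lay below all libraries of D0 and day 3.

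The SUV39H genes differed in their course from D0: Suv39h1 rose in D3RA over D0, while every differentiated library had less Suv39h2 than every D0 library. Both rose in D3RA over D3DMSO and both fell in D6RA relative to D3RA. Suv39h1 was at 40.5, 39.8 and 42.7 CPM in D0, 64.4, 65.5 and 55.3 CPM in D3RA and 41.8, 38.7 and 42.6 CPM in D6RA. It was at 44.1, 52.8 and 44.5 CPM in D3DMSO and 51, 55.2 and 52.3 CPM in D6DMSO. The lowest D3RA library lay only just above the highest of the others, a D6DMSO library, and D6RA overlapped with D0. Suv39h1 rose in D3RA over D0 (0.59 ± 0.09, adjusted p = 1.46e-05) and over D3DMSO (0.39 ± 0.09, adjusted p = 0.000923). It fell in D6RA relative to D6DMSO (-0.36 ± 0.09, adjusted p = 0.00146) and relative to D3RA (-0.59 ± 0.09, adjusted p = 1.55e-05). It was not called in D3DMSO relative to D0 (0.20 ± 0.09, adjusted p = 0.0669), although those libraries did not overlap, and it passed without D3DMSO replicate 1 (adjusted p = 0.0396, with 0.304 the highest over its alternatives).

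Suv39h2 was at 66.4, 67.5 and 64.3 CPM in D0, 58, 59.6 and 58.5 CPM in D3RA and 35.9, 37.7 and 36.3 CPM in D6RA. It was at 40, 39.8 and 38.3 CPM in D3DMSO and 38.8, 39.1 and 38.2 CPM in D6DMSO. Its low level was thus present at day 3 with DMSO and only at day 6 with RA. It fell in D3DMSO relative to D0 (-0.74 ± 0.06, adjusted p = 4.73e-08) and in D6RA relative to D3RA (-0.68 ± 0.06, adjusted p = 7.05e-08), and was higher in D3RA than in D3DMSO (0.58 ± 0.06, adjusted p = 5.61e-07). In D6DMSO over D3DMSO it was not called (-0.03 ± 0.06, 95% interval -0.16 to 0.11).

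The smaller fall of Suv39h2 in D3RA relative to D0 (-0.17 ± 0.06, adjusted p = 0.0251) was lost in the fit of those 6 libraries (0.0935) and without D0 replicate 1 (0.0557), D0 replicate 2 (0.0756) or D3RA replicate 1 (0.0604), with a lowest value of 0.0152 over 14 alternatives. In D6RA relative to D6DMSO it was not called (-0.08 ± 0.06, adjusted p = 0.285), except with quantile normalization (-0.21, adjusted p = 0.00813), with 0.49 the highest over its alternatives. The log2 value of Suv39h2 less that of Suv39h1 in the same library averaged 0.69 ± 0.09 in D0 and was lower in every library of the 4 other groups, whose means were -0.07 ± 0.13 in D3RA, -0.25 ± 0.14 in D3DMSO, -0.16 ± 0.11 in D6RA and -0.45 ± 0.05 in D6DMSO.

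Markers of cycling cells (16 of 16 measured) summed to 6310 to 6460 CPM in D0, 5340 to 6010 CPM in D3RA, 5200 to 5640 CPM in D3DMSO, 3240 to 3250 CPM in D6RA and 4470 to 4730 CPM in D6DMSO. In D6RA relative to D6DMSO 14 of them fell and 0 rose (33.1% of all genes lower, 32.6% higher), while Suv39h1 fell and Suv39h2 was not called. In D6RA relative to D3RA 15 fell and 0 rose (32.0%, 37.2%), and both Suv39h genes fell. In D3RA over D3DMSO 4 rose and 5 fell (30.7% higher, 31.4% lower), while both Suv39h genes rose. In D3RA relative to D0 10 fell and 2 rose (33.9%, 35.0%), while Suv39h1 rose and Suv39h2 fell. In D3DMSO relative to D0 11 fell and 0 rose (27.8%, 28.2%), Suv39h2 fell and Suv39h1 was not called. In D6DMSO relative to D3DMSO 13 fell and 1 rose (28.1%, 28.3%), and neither Suv39h gene was called. The part of cell division in the Suv39h values was not tested.

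**Figure D3:**
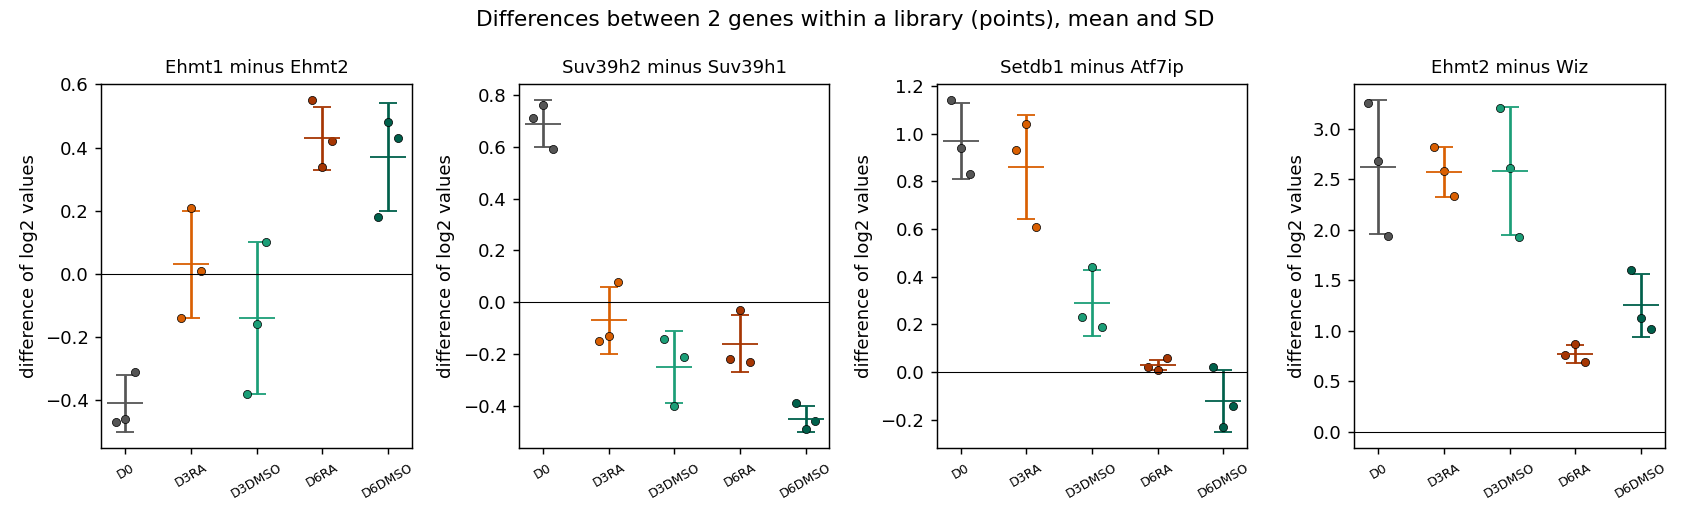
Difference between the log2 values of 2 genes in the same library (vertical axes), with a point per library and bars for the mean and SD of 3, in the 5 groups. Suv39h2 less Suv39h1 is 0.59 to 0.76 in D0 and at most 0.08 elsewhere, and Ehmt2 less Wiz is 0.69 to 1.60 in D6RA and D6DMSO and 1.93 to 3.25 in the other groups.

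Of the 8 exact tests of such differences (4 pairs of genes, RA with DMSO at each day), none could pass with 3 libraries a group, and all adjusted values were 0.267 or more. The groups did not overlap for Setdb1 less Atf7ip at day 3, for Suv39h2 less Suv39h1 at day 6 (-0.16 ± 0.11 in D6RA and -0.45 ± 0.05 in D6DMSO) and for Ehmt2 less Wiz at day 6 (0.77 ± 0.09 in D6RA and 1.25 ± 0.31 in D6DMSO).

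Counted together, the 9 genes were called about as often as the table as a whole. In D3RA relative to D0, 4 rose, 3 fell and 2 were not called, and 68.9% of all genes were called (35.0% higher and 33.9% lower). In D3DMSO relative to D0, 0 rose and 5 fell (Ehmt2, Setdb1, Suv39h2, Mecom and Prdm16), where 56.1% of all genes were called, 28.2% higher and 27.8% lower. The median log2 fold change of the 9 genes was -0.37 there and that of all genes 0.02. In D3RA over D3DMSO, 6 rose, Atf7ip fell and 2 were not called, where 62.1% of all genes were called, 30.7% higher and 31.4% lower, with medians of 0.38 for the 9 genes and -0.01 for all. These 3 comparisons share libraries in pairs, so they are not independent of each other.

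In D6RA relative to D6DMSO, 4 rose (Ehmt1, Wiz, Setdb1 and Prdm16), Suv39h1 fell and 4 were not called, where 65.8% of all genes were called, 32.6% higher and 33.1% lower. With quantile normalization Prdm16 alone rose, and Suv39h1 and Suv39h2 fell, so the count of 5 called was 3 and most of it was lower. The count was also 3 without D6DMSO replicate 1 or without D6RA replicate 1, where the rises of Ehmt1 and Wiz were lost. In D6RA relative to D3RA, 5 rose and 3 fell, where 69.3% of all genes were called, 37.2% higher and 32.0% lower. In D6DMSO relative to D3DMSO, 5 rose and 0 fell, where 56.4% of all genes were called, 28.3% higher and 28.1% lower. The libraries of the groups compared did not overlap for 7 of the 9 genes in D3RA with D0 (68.2% of all genes), 6 in D3DMSO with D0 (58.8%) and 6 in D3RA with D3DMSO (58.5%). They did not overlap for 7 in D6RA with D6DMSO (80.3% of all genes), 8 in D6RA with D3RA (73.6%) and 5 in D6DMSO with D3DMSO (63.1%). Mecom, Suv39h1 and Suv39h2 fell between the days with RA. With DMSO Mecom rose and Suv39h2 was not called (-0.03 ± 0.06, adjusted p = 0.734). Suv39h1 was not called there either (0.17 ± 0.09, adjusted p = 0.111), except without D3DMSO replicate 2 (0.25, adjusted p = 0.023, within 0.023 to 0.29).

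**Figure D4:**
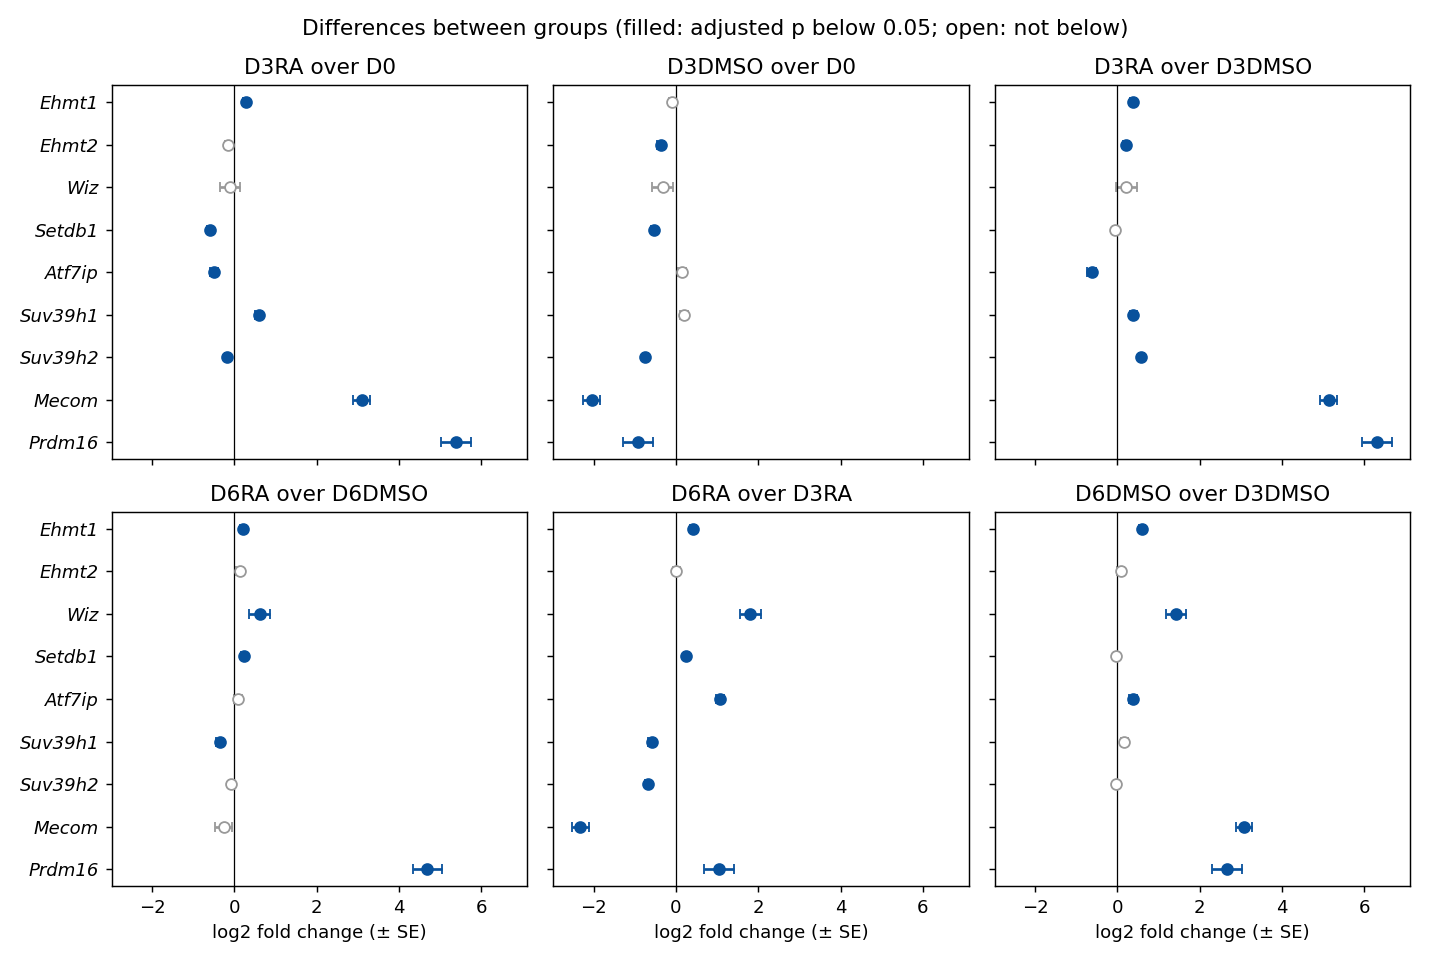
Log2 fold change ± SE of each of the 9 genes in 6 comparisons, the first-named group over the second, with filled points for an adjusted p below 0.05. Mecom and Prdm16 lie at 5.13 and 6.30 in D3RA over D3DMSO, while the other 7 genes lie between -0.63 and 0.58 there.

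Whether the difference between treatments changed from day 3 to day 6 was tested as an interaction, which takes the log2 fold change of D3RA over D3DMSO away from that of D6RA over D6DMSO. It was called for 6 of the 9 genes, where 48.5% of all genes were called. The interaction was -5.39 ± 0.29 for Mecom (adjusted p = 2.35e-10), -0.76 ± 0.12 for Suv39h1 (8.76e-05), -0.65 ± 0.09 for Suv39h2 (1.25e-05) and -1.61 ± 0.51 for Prdm16 (0.0157). It was 0.70 ± 0.14 for Atf7ip (0.000652) and 0.28 ± 0.09 for Setdb1 (0.0156). Suv39h1 thus changed sides, being higher in D3RA than in D3DMSO and lower in D6RA than in D6DMSO. The Prdm16 value rests in part on the 2 counts of D3DMSO. For Ehmt1 it was not called (-0.19 ± 0.10, adjusted p = 0.121), except without D3DMSO replicate 3 (0.0402, within 0.0402 to 0.243).

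Other genes of H3K9 methylation were taken from lists written from general knowledge, but with earlier results of these data known. The 20 genes listed as further writers and partners include some that are not H3K9 methyltransferases, such as Dnmt1, Hdac1, Hdac2, Sirt1 and Rb1. Of these 20, 12 fell and 6 rose in D3RA relative to D0, where 33.9% of all genes were lower and 35.0% higher. In D3DMSO relative to D0, 11 fell and 3 rose (5 rose without D3DMSO replicate 1), where 27.8% of all genes were lower and 28.2% higher. Between treatments 8 rose and 5 fell in D3RA over D3DMSO, and 8 rose and 6 fell in D6RA over D6DMSO, with medians of 0.08 and 0.14, against -0.01 and -0.02 for all genes. Of all genes, 30.7% were higher and 31.4% lower at day 3, and 32.6% and 33.1% at day 6. The ends of this list were the same genes at both days. Prdm8, a PRDM factor of neurons, had 9.93, 7.17 and 11 CPM in D3RA and 0 counts in the 3 D3DMSO libraries, so it was at least 59.1-fold higher in D3RA, taking 3 counts over the 3 D3DMSO libraries as the limit. It was at 15.4 ± 0.774 CPM in D6RA and 0.0724 ± 0.0263 CPM in D6DMSO. Atf7ip2, a relative of Atf7ip, was at 3.1, 1.3 and 5.02 CPM in D3RA, against 18.9, 29.1 and 23.5 CPM in D3DMSO (-3.03 ± 0.31, adjusted p = 3.02e-07). In D6RA it was at 0.956 ± 0.103 CPM, against 13 ± 0.679 CPM in D6DMSO (-3.74 ± 0.31, adjusted p = 1.39e-08). Atf7ip and Atf7ip2 were thus both lower with RA at day 3.

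Of 10 genes listed as readers of the mark, 3 rose and 4 fell in D3RA over D3DMSO (2 fell without D3DMSO replicate 1 or 2 or D3RA replicate 2). In D6RA over D6DMSO 3 rose and 3 fell. Of all genes, 30.7% were higher and 31.4% lower at day 3, and 32.6% and 33.1% at day 6. Cbx1, which encodes the heterochromatin protein HP1 beta, averaged 450 ± 19.4 CPM in D3RA and 224 ± 19.2 CPM in D3DMSO (1.01 ± 0.07, adjusted p = 3.28e-09). L3mbtl2, which encodes a protein of a Polycomb-like complex, was at the other end there (28.6 ± 5.13 CPM in D3RA and 51.7 ± 4.41 CPM in D3DMSO). At day 6 the ends were Cbx3, which encodes HP1 gamma (28.7 ± 1.05 CPM in D6RA and 17 ± 0.415 CPM in D6DMSO), and Lbr, which encodes the lamin B receptor of the inner nuclear membrane (126 ± 3.34 CPM in D6RA and 234 ± 6.8 CPM in D6DMSO).

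Of 10 measured H3K9 demethylases, which remove the mark, 2 rose and 5 fell in D3RA over D3DMSO (3 fell without D3DMSO replicate 2), where 30.7% of all genes were higher and 31.4% lower. In D6RA over D6DMSO 7 rose and 1 fell, where 32.6% of all genes were higher and 33.1% lower. All 10 measured demethylases rose in D6RA over D3RA, with a median of 1.01 against 0.07 for all genes and with 37.2% of all genes higher. In D6DMSO over D3DMSO 5 rose and 2 fell, with a median of 0.22 against 0.01 for all genes (28.3% higher, 28.1% lower). Of the further writers and partners 7 rose and 6 fell in D6RA over D3RA, and of the readers 2 rose and 4 fell (37.2% of all genes higher, 32.0% lower). Day and set of libraries cannot be told apart in these comparisons. Phf2, which encodes a PHD finger demethylase, had 25, 23.1 and 29.7 CPM in D3RA, against 8.84, 17 and 19.4 CPM in D3DMSO. In D6RA it was at 109, 114 and 114 CPM, against 38.9, 42 and 44.8 CPM in D6DMSO (1.42 ± 0.21, adjusted p = 1.4e-05). Kdm4c, which encodes a demethylase of H3K9me3, had the lowest log2 fold change at both days, with 52.6 ± 4.83 CPM in D3RA and 82.4 ± 7.88 CPM in D3DMSO (-0.65 ± 0.08, adjusted p = 3.3e-06). Its call at day 6 (-0.20 ± 0.08, adjusted p = 0.0395) was lost in the fit without the trend (0.0602) and without any of D6DMSO replicates 1 and 2 and D6RA replicates 1, 2 and 3 (0.0562 to 0.161).

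For the 4 of the 9 genes with the widest range of group means, the genes with the most alike pattern were found by Pearson correlation of log2 values over the 15 libraries, among 8652 genes. These are descriptions over libraries that share groups, depth and makeup. For Prdm16 they were Ebf2 (r = 0.986), Cd24a and Epha5 (both 0.983). Ebf2 averaged 9.4 CPM in D3RA and 0.0977 CPM in D3DMSO, and 31.6 CPM in D6RA and 0.706 CPM in D6DMSO. For Mecom they were Col3a1 (0.972), Rcbtb2 (0.965) and Egfr (0.956), and Col3a1 averaged 31.3 CPM in D3RA and 0.452 CPM in D3DMSO. For Wiz they were Eif4g3 (0.982), Ncoa2 (0.979) and Pcgf2 (0.977), and Pcgf2 averaged 58 CPM in D6RA and 53.7 CPM in D6DMSO, against 22.9 to 25.1 CPM in the other groups. For Atf7ip they included Hdac4 (0.984) and Adar (0.982), and Hdac4 averaged 13.8 CPM in D3RA and 26.9 CPM in D3DMSO.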

How the data were processed

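The deposited table holds log2 values of 14717 Ensembl genes in 15 libraries, made by the authors from 75 bp single-end reads. Bowtie2 2.2.9, STAR 2.6.0c, featureCounts, edgeR, limma and the mm9 genome are listed per the submitters' processing notes, without roles. Symbols were found for 14228 genes. After undoing the log2, a constant per library and an added count of 0.5, 100% of values lay within 0.05 of a whole number. These counts, over library sizes that follow the deposited scale (their geometric mean equals that of the counts outside mitochondrial genes), gave CPM.

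The deposited log2 values were fitted with limma 3.58.1 (R 4.3.3; variance trend on), with 1 coefficient per group (10 residual degrees of freedom) and Benjamini-Hochberg adjustment over all genes. No gene was filtered. The scripts were tested on simulated data. Differences within a library were compared by exact permutation (scipy 1.17.1). Alternatives are given in the closing section.

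The members and lists were chosen with earlier results of these data known. From each list the called members at either end in RA over DMSO at each day were named, and for the 4 members of widest range the 3 most alike genes, of which 1 is not reported here. Groups followed the titles, whose shared replicate numbers were not taken to pair the libraries, since no 2 groups had all 3 correlations of deviations over 0.1. Library kits were stranded, per the labels, but the strand setting of counting is not given in the sources used here. In RefSeq (GRCm38.p6) Dclre1c overlaps Suv39h2, Cers2 overlaps Setdb1, and non-coding genes overlap Mecom, Prdm16 and Atf7ip, so their reads may be shared. Promoter sequences are from RefSeq, where all 9 genes matched.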

Additional observations from a re-analysis of the deposited data

Results flagged for a closer look

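The difference between treatments changed between day 3 and day 6 for 6 genes, by the interaction of the limma fit (the log2 fold change at day 6 less the one at day 3, adjusted p below 0.05). That interaction was called for 48.5% of all genes. For Mecom it was -5.39, from 5.13 for D3RA over D3DMSO and -0.26 for D6RA over D6DMSO. For Suv39h1 it was -0.76, from 0.39 and -0.36 in the same order, and for Suv39h2 -0.65, from 0.58 and -0.08. For Prdm16 it was -1.61, from 6.30 and 4.69, where D3DMSO held 2 counts in 3 libraries. For Atf7ip it was 0.70, from -0.63 and 0.08, and for Setdb1 0.28, from -0.05 and 0.23. The Setdb1 interaction was lost with quantile normalization (0.20, adjusted p = 0.0617, the highest of 20 alternatives, the lowest being 0.00582).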

How the results depend on the processing

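The alternatives were quantile normalization, median-of-ratios scaling, limma without the trend, a filter of 5 CPM in 3 libraries (12552 genes), a fit of the compared groups alone, the replicate block, voom weights, an added count of 2 on average in proportion to library size, and leaving out each library in turn. The alternative without a filter is the fit reported, since none was applied. Of 63 results (9 genes in 7 comparisons), 48 kept their side of the threshold, and their direction where called, under every alternative run. Of 936 alternative values, 31 lost a call, 7 gained one and 0 reversed a called direction. Counts of all genes called stayed within 1.5 times in each of the 7 comparisons. Of the 9 genes, 5 were called in D6RA with D6DMSO and 3 with quantile normalization, and leaving out each library gave 3 to 5. Of the 10 genes listed as readers, 4 fell in D3RA over D3DMSO, and 2 did in the fit of the compared groups alone, without the trend and with voom weights. The 1 demethylase that fell in D6RA over D6DMSO was not called without the trend. Quantile normalization moved the median of all genes in D6RA over D3RA to -0.06 from 0.07. Across all genes, same-numbered libraries showed correlations of their deviations of -0.15 to 0.21, although Wiz had the same order of numbers in all 5 groups, and in 2 of 10 pairs of groups each library correlated best with its own number. With the replicate number as a block, 9287 genes were called in D3RA with D3DMSO, against 9136 without it, and 9808 in D6RA with D6DMSO, against 9678, and the adjusted p of Wiz there was 0.00145, against 0.0409. Depth limits Prdm16, with 0 to 3 counts in D0 and D3DMSO libraries.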
